A study of Mus musculus with 19 samples.

Results

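The Thy+6C3-CD105+ cells are 1 of 6 populations of skeletal cells sorted by flow cytometry from the limbs of newborn mice, and their 3 arrays are 3 of the 19 arrays in the series and 3 of its 18 neonatal arrays. They were chosen by the cell population that the labels record, and each gene was compared as the mean of these 3 arrays minus the mean of the 5 other population means. Genes that lay above or below all of the other 15 neonatal arrays are described in most detail. The other Thy+ population was Thy+6C3-CD105-. The Thy- populations were Thy-6C3-CD105+ and Thy-6C3-CD105-, which lack 6C3, and Thy-6C3+CD105+ and Thy-6C3+CD105-, which carry it. Each had 3 arrays. All 6 had passed the gate CD45-Ter119-Tie2-AlphaV+, which leaves out blood and Tie2+ cells and requires integrin alpha V. The cells came from the fore and hind limbs of pooled litters at postnatal day 3. The genotype is given as wild-type, while the growth protocol speaks of mice labelled with GFP, and CD200 was stained although no population name includes it. The labels of replicates 2 and 3 of Thy-6C3+CD105- disagree, since the titles name Thy+ and the population field names Thy-, and the field was followed. One further array, of adult cells, entered no comparison.

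Mural cells, which comprise pericytes and vascular smooth muscle cells, wrap the endothelium of small and large vessels, contract and help to stabilise the vessel wall. Their recruitment depends on platelet-derived growth factor receptors, and their differentiation on the receptor Notch3, which is cut upon ligand binding so that its intracellular part acts with the DNA-binding protein RBPJ on target genes. In bone, cells around vessels also supply factors that retain blood-forming stem cells. Thy, the product of Thy1, and CD105, the product of Eng and a co-receptor for transforming growth factor beta, are surface antigens of mesenchymal cells.

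The arrays give log2 levels, so a difference of 1 is a 2-fold difference, and each level is comparable across arrays but not between genes. Deposited array medians lay between 5.60 and 6.02. The arrays carry no counts, and their number limits the precision. The labels do not say that the 3 arrays of a population came from separate litters, so p-values measure the spread between these samples, which may be technical. In sorted bulk samples, fewer cells of a type and less RNA per cell cannot be told apart. A gene is called at an adjusted p under 0.05 from limma, and each difference is given with the SE of the fit.

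The genes of the sorted antigens and markers of other cells were examined first. Thy1 stood at 10.37, 10.47 and 10.20 in Thy+6C3-CD105+ cells and at 9.99 to 10.38 in the other Thy+ population, and no Thy- array exceeded 5.95. The Thy- arrays include Thy-6C3+CD105- replicates 2 and 3, whose titles name Thy+. Eng had 8.75, 8.38 and 8.34, as in the other CD105+ populations (8.17 to 8.83) and above the Thy- CD105- arrays (6.65 to 7.82). Thy+6C3-CD105- replicate 3 went against its label, with an Eng level of 8.58 where its replicates had 7.51 and 7.61, and Thy-6C3+CD105- replicate 2 stood apart in its deposited median (6.02) and its hybridization controls (8.66, against 10.06 to 10.98 on the other neonatal arrays). Without both arrays the main comparison called 1253 genes and kept 881 of its 885 calls. Enpep, which encodes 6C3, was at 7.71 to 8.83, below the 10.69 to 11.24 of the 6C3+ populations. Tek, the gene of the excluded antigen Tie2, was higher by 0.78 ± 0.13 (adjusted p = 0.0011) at levels of 5.70 to 6.10, below the 6.17 to 6.50 of Thy+6C3-CD105- cells. The endothelial markers Pecam1 (4.28 to 5.04) and Cdh5 (5.08 to 5.16) lay within the range of the other arrays, and 4 of 18 endothelial genes were called higher and 1 lower. Among 16 myeloid, 7 erythroid and 12 keratinocyte genes none was called by limma (0 higher and 3, 0 and 3 lower at an unadjusted p under 0.05). The mean level of these lists on the 3 arrays was 5.19 to 5.50, 4.65 to 4.82 and 5.76 to 5.79. Of 14 skeletal muscle genes Myh3 was called higher, and of 9 glial genes Erbb3 was called higher and S100b lower. Over all genes 3.23% were called higher and 1.64% lower, and such small counts were not tested against these shares. The Erbb3 call was lost without Thy+6C3-CD105+ replicate 1 or 3 and the S100b call without any single one of the 3 arrays. Both markers given for the population, Rgs5 and Epas1, were called higher. These markers were chosen with earlier results of these data known, so their calls are no independent check of the sort. The Epas1 call was lost when Thy+6C3-CD105- cells were left out of the mean (limma adjusted p = 0.12).

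Of 18193 genes, 885 (4.86%) were called between Thy+6C3-CD105+ cells and the mean of the 5 other populations. There were 587 (3.23%) higher and 298 (1.64%) lower genes, so 66.3% of the calls were higher, and with arrays scaled to a common median only this share was 76.4%. A difference of at least 2-fold was found for 297 of the higher and 129 of the lower genes. The number of calls was 484 without Thy+6C3-CD105+ replicate 2 and 455 without replicate 3. On 333 genes (1.83%) the 3 arrays lay above all of the other 15, and on 86 genes (0.473%) they lay below all of them. Without Thy+6C3-CD105+ replicate 1 these counts were 586 and 395, and without replicate 3 the lower count was 175. Both called and above all other arrays were 266 genes (1.46%), and both called and below were 40 (0.22%). Where called genes overlapped with other arrays, the overlap was mostly with the other Thy+ population. It held the highest other array for 241 of 321 such higher genes and the lowest for 217 of 258 such lower genes. The border of the rule was examined only among genes above the median gene mean of 6.76. There Mcm7 and Tug1 were the last genes inside, with lowest Thy+6C3-CD105+ arrays of 11.37 and 10.47 against highest others of 11.36 and 10.47. Reep1 and Cenpk were just outside, at 9.04 and 7.89 against highest others that exceeded these by less than 0.01. On the lower side Nt5dc3 and Klc3 were just inside and Pacsin3 and Chac1 just outside.

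**Figure D1:**
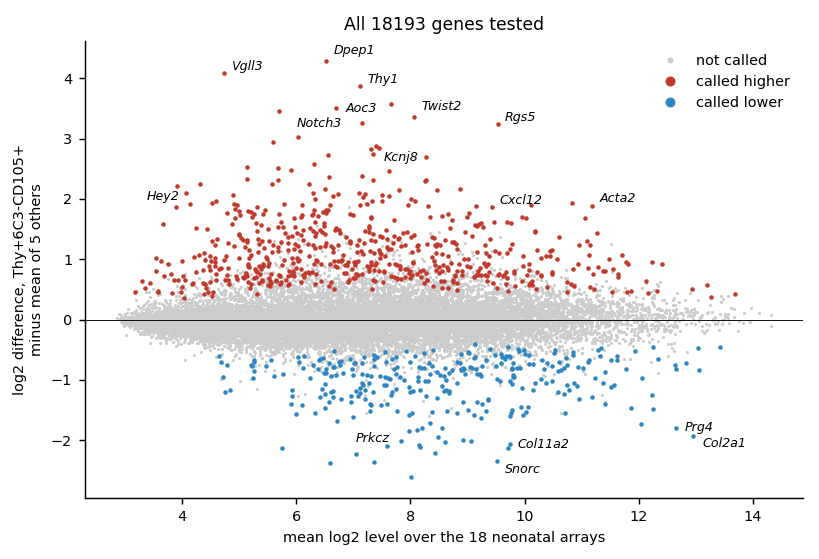
Log2 difference between Thy+6C3-CD105+ cells and the mean of the 5 other populations (vertical axis) against the mean log2 level over the 18 neonatal arrays (horizontal axis), 1 point for each of 18193 genes. Red points are the 587 genes called higher and blue points the 298 called lower (limma adjusted p under 0.05), with Dpep1 at the top with a difference of 4.28.

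Genes of mural cells were higher in Thy+6C3-CD105+ cells. Of 31 measured members of a pericyte and smooth muscle list 18 were called higher and 1, Cspg4, lower. Over all genes 3.23% were called higher, 1.64% lower, and 1.83% lay above all other arrays. Those shares are the background of each list below, and no list was tested against them. The median difference of the mural list was 1.28, against -0.04 over all genes, and 16 members lay above all other arrays. The mean level of the list was 8.11 to 8.22 on the 3 arrays and 6.61 to 7.25 on the other 15, with no overlap. Between 9 and 25 members were called higher under the alternative settings, with the lowest count when only genes above the median level were tested and the highest with array weights.

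Rgs5, a regulator of G protein signalling and a classic pericyte marker, stood at 12.06, 12.40 and 12.21 in Thy+6C3-CD105+ cells. The other 15 arrays ran from 7.80 over a median of 8.89 to 10.13. The groups did not overlap, the difference was 3.24 ± 0.21 (SE; adjusted p = 3.94e-08, limma), and all 4 probe sets of Rgs5 lay above all other arrays. Gucy1a1, a subunit of the nitric oxide receptor that relaxes smooth muscle, measured 7.91, 8.29 and 7.94 against 4.53 to 5.89 (median 4.97), again with no overlap. Its difference of 2.94 ± 0.19 had an adjusted p of 3.94e-08 (limma). Aoc3, an amine oxidase on the surface of vascular smooth muscle cells and adipocytes, showed the largest difference of the list, 3.50 ± 0.38 (limma adjusted p = 1.21e-05). Its levels were 9.88, 9.65 and 9.33, while the other arrays reached at most 7.72.

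Contractile genes were also higher. Acta2, which encodes smooth muscle actin, had 12.56, 12.85 and 12.85 against 9.99 to 12.08 (median 10.75) elsewhere. Its difference was 1.89 ± 0.19 (limma adjusted p = 4.45e-06), but it rested on 1 probe set. The other probe sets differed by 0.27 and -0.11. They were at low levels in Thy+6C3-CD105+ cells, 4.04 and 4.21 against 12.76 on the one used, where a difference may not be seen. The highest other arrays belonged to Thy+6C3-CD105- cells, from which Acta2 differed by 0.97 (adjusted p = 0.0627). Myh11, the smooth muscle myosin heavy chain, measured 7.19, 7.45 and 6.86, and no other array exceeded 6.36. Its second probe set differed by only 0.26, against 1.76 ± 0.22 for the one used. Tagln, an actin-binding protein of smooth muscle, was higher by 1.66 ± 0.18 and Mylk, the myosin light chain kinase, by 1.89 ± 0.20. Higd1b, a mitochondrial protein used as a pericyte marker, was higher by 1.90 ± 0.16, with levels of 6.45 to 6.62 against at most 5.10.

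Not all mural genes moved in this way. Cspg4, which encodes the pericyte proteoglycan NG2, was lower (-0.87 ± 0.23, adjusted p = 0.0338, limma), at 11.00, 10.57 and 10.47 against 9.81 to 12.79 elsewhere. These values overlapped with those of other populations, and the call was lost without Thy+6C3-CD105+ replicate 2 or 3. Pdgfrb, the platelet-derived growth factor receptor of pericytes, lay above all other arrays at 12.29, 12.32 and 11.94 against at most 11.90. Its adjusted p was 0.0455 for a difference of 1.24 ± 0.34, and it was lost under 21 of the alternatives, among them the removal of any single Thy+6C3-CD105+ array. Des (0.58, adjusted p = 0.143), Cnn1 (0.22, 0.629) and Myocd (-0.12, 0.796), which encode the filament protein desmin, calponin and a smooth muscle coactivator, were not called.

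**Figure D2:**
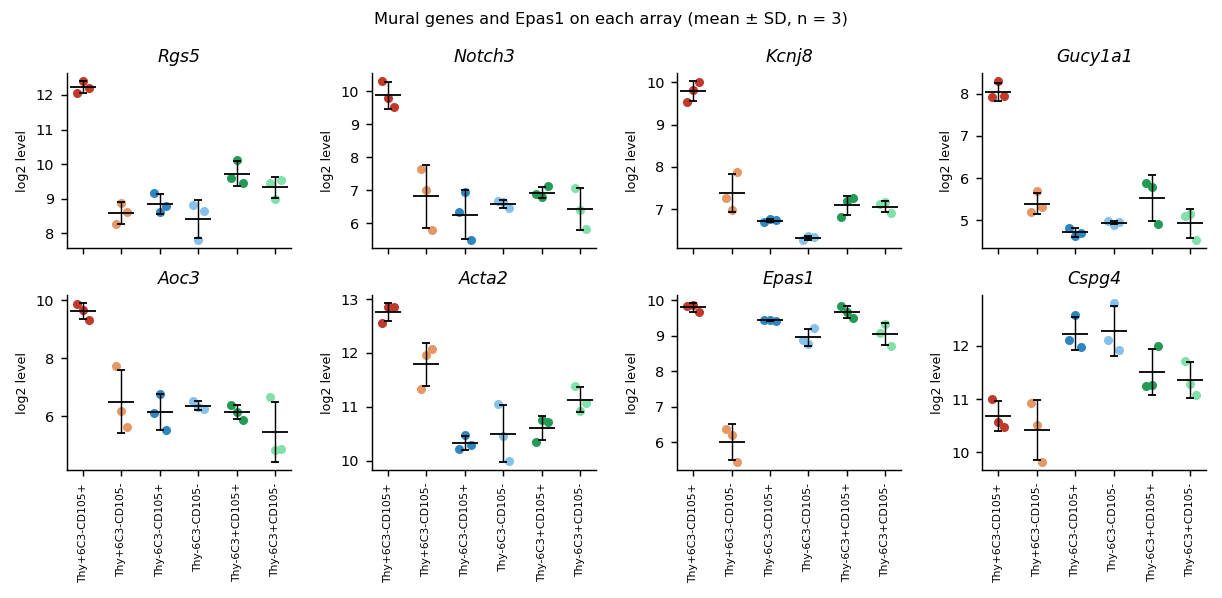
Log2 levels of 8 genes on each of the 18 neonatal arrays (vertical axes), by population (horizontal axis). Points are arrays, the horizontal bar is the mean and the error bar 1 SD (n = 3). Rgs5 lies between 12.06 and 12.40 in Thy+6C3-CD105+ cells with no other array above 10.13, Epas1 is low only in Thy+6C3-CD105- cells, and Cspg4 is highest in Thy-6C3- cells.

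Of 23 measured Notch genes 3 were called higher and 1 lower, with a median of 0.10. The receptor Notch3 stood at 10.30, 9.80 and 9.50, and the other arrays ran from 5.49 over 6.69 to 7.64. The difference was 3.26 ± 0.33 (limma adjusted p = 5.3e-06), and the second probe set also lay above all other arrays, by 1.62. The transcriptional repressor Hey2, a target of Notch, measured 5.28, 6.28 and 5.67, where the highest other array had 4.16. Hey2 and Heyl, the related target in mural cells, were higher by 1.92 ± 0.14 and 1.47 ± 0.19. The 3 genes were called against each of the 5 other populations. The member called lower was Dlk1, a non-canonical Notch ligand (-0.70, limma adjusted p = 0.0135). Its call was lost under 8 of the alternatives, among them the removal of Thy+6C3-CD105+ replicate 2 or 3. Others were the values as deposited, a common median, the mean of probe sets and unshared probe sets only. The other probe set of Dlk1 differed by -0.08.

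The promoters of Hey2 and of 3 mural genes are shown because these genes were higher together and contain TGGGAA, the core of the RBPJ recognition sequence, or its reverse complement, in capitals. They run from 250 bases before to 50 bases after the start of the gene, in RefSeq's GRCm38.p6 assembly, all on the minus strand. Kcnj8 and Abcc9 encode the pore and the regulatory subunit of 1 potassium channel. Their windows are chr6:142571565-142571864 and chr6:142702225-142702524, while those of Hey2 and Acta2 are chr10:30842734-30843033 and chr19:34255324-34255623.
Hey2: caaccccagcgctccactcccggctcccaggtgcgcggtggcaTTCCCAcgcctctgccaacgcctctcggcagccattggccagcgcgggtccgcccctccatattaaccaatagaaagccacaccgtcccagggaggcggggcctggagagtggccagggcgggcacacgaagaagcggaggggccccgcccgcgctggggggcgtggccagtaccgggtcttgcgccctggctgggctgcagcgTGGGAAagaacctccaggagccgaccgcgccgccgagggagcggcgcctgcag
Kcnj8: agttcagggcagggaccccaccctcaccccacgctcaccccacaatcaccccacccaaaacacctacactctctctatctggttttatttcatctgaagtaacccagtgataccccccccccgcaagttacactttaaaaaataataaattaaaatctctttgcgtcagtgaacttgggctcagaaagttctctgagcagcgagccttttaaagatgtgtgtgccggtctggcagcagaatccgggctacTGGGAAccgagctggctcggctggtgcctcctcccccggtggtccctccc
Abcc9: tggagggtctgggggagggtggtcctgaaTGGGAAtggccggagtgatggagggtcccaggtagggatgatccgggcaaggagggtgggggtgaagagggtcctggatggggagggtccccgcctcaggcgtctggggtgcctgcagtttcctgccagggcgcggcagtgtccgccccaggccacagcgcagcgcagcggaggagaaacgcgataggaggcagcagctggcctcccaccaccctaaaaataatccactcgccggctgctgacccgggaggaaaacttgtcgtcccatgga
Acta2: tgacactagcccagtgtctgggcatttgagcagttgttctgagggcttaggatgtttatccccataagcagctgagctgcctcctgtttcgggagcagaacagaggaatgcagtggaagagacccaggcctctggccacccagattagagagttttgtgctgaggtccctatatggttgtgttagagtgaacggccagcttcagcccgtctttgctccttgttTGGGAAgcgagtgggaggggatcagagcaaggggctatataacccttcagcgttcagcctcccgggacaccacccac
On either strand, TGGGAA occurred in at least 1 promoter of 28.3% of the 27025 genes with a promoter in the table. Among tested genes with a promoter the share was 27.5%. It was 151 of 430 (35.1%) for genes called higher and 60 of 228 (26.3%) for genes called lower. The promoters numbered 32851, so a gene with several had more chances of a match. Of the mural list 20 members had a promoter in the table, and 8 of these (40.0%) contained it. No test was made of these shares, a match is not a binding site, and only 1 motif was searched.

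Channels, receptors and enzymes that set vessel tone were higher in part. Of 25 measured members of this list, 10 were called higher and none lower by limma (13 and 0 at an unadjusted p under 0.05), with a median of 0.46. The list's mean level was 7.26 to 7.27 on the 3 arrays and at most 6.76 on the others. Kcnj8 measured 9.54, 9.82 and 10.01 against 6.26 to 7.89 (median 6.90), a difference of 2.87 ± 0.17 (limma adjusted p = 2.76e-08). Abcc9, its partner, had 8.65, 8.12 and 8.51 against at most 7.90. The difference of Abcc9 was 1.73 ± 0.31 on the probe set used and 2.86 and 4.74 on the other probe sets, which also lay above all other arrays. Pde5a, which breaks down cyclic GMP, was higher by 1.89 ± 0.26, and the vasopressin receptor gene Avpr1a by 1.73 ± 0.27. Other probe sets of Pde5a differed by 2.18 and 0.67, and that of Avpr1a by 0.69. Calcrl and Ramp1, which together form a receptor for calcitonin gene-related peptide, were higher by 1.70 ± 0.28 and 1.34 ± 0.18. Other probe sets of Calcrl differed by 0.13, at low levels of 3.75 and 3.71 against 6.65 on the one used. Those of Ramp1 differed by 0.16 and -0.26. Ptger3, a prostaglandin receptor, was called on 1 probe set (1.59 ± 0.29), while the other differed by -0.12.

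Epas1, which encodes the hypoxia-inducible transcription factor HIF-2 alpha and is expressed in pericytes among other cells, showed a different pattern from Rgs5. It stood at 9.85, 9.88 and 9.66 in Thy+6C3-CD105+ cells and at 6.38, 6.21 and 5.43 in Thy+6C3-CD105- cells. The other 12 arrays lay between 8.71 and 9.82, so that the Thy+6C3-CD105+ values overlapped with theirs. The difference from the mean of 5 was 1.17 ± 0.18 (limma adjusted p = 0.000377), and it was not called when Thy+6C3-CD105- cells were left out of that mean (adjusted p = 0.12). Against Thy-6C3+CD105+ cells it was 0.13 (adjusted p = 1) and against Thy-6C3-CD105+ cells 0.36 (0.54). The second probe set of Epas1 differed by 0.24. Of 22 measured members of the hypoxia-inducible factor list, Car9, a carbonic anhydrase, was also called higher (0.81 ± 0.19) and Car12, another, lower (-1.42 ± 0.24). The Car9 call was lost without any single Thy+6C3-CD105+ array. The median of the list was -0.09, near that of all genes.

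Genes for vessel growth and for the support of blood-forming cells were higher in part. Of 23 measured members of the vessel growth list 7 were called higher and none lower (limma; 10 and 0 unadjusted), with a median of 0.41. Only 3 were called higher when any single Thy+6C3-CD105+ array was left out, and 2 within the 11 arrays with a high signal of the poly-A control RNA (the high poly-A arrays). Pdgfd, a ligand of the platelet-derived growth factor receptors, measured 6.53, 7.39 and 7.32 against 3.77 to 5.61, a difference of 2.33 ± 0.35. Its other probe sets differed by 0.28 and 0.02. Angpt2, a ligand of Tie2, was higher by 1.39 ± 0.18, with no overlap. The other probe set of Angpt2 differed by 0.11, at a low level of 4.43 against 7.08 on the one used. Nrp1, a co-receptor for vascular endothelial growth factor, was higher by 1.60 ± 0.37 on 4 probe sets that all lay above the other arrays. The Nrp1 call was lost without any single Thy+6C3-CD105+ array.

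Of 16 measured niche genes 5 were called higher and 1, the transcription factor Foxc1, lower (-1.37 ± 0.21), and 3 were higher without Thy+6C3-CD105+ replicate 1. Cxcl12, the chemokine that retains blood stem cells, stood at 10.92, 10.89 and 11.11, against 8.31 to 10.04 (median 9.27). Its difference was 1.86 ± 0.21 (limma adjusted p = 1.69e-05) on the probe set used and 0.37 and 0.14 on the others. Vcam1, an adhesion molecule, was higher by 1.76 ± 0.15 and did not overlap. Kitl, the stem cell factor, measured 9.58, 9.13 and 9.13 against at most 8.73, and Lepr, the leptin receptor of marrow stroma, 8.13, 8.13 and 9.08 against at most 7.71. The spread of both was wide (2.32 ± 0.49 and 2.57 ± 0.60), and the Lepr call was lost without any single Thy+6C3-CD105+ array and the Kitl call without replicate 1. Igf1, a growth factor, was higher by 1.07 ± 0.20 but overlapped.

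The largest differences included genes outside the mural list. Dpep1, a membrane dipeptidase, measured 10.49, 9.81 and 9.96, where the other arrays ran from 4.74 over 5.51 to 8.36. The difference of 4.28 ± 0.26 (limma adjusted p = 3.84e-08) was the largest among genes that lay above all other arrays and above the median level. Vgll3, a cofactor of TEAD transcription factors, stood at 8.15, 8.09 and 8.17 against 3.25 to 5.88 (4.08 ± 0.28), and its 3 probe sets gave 3.79 to 4.08. Frem1, an extracellular matrix protein of basement membranes, was higher by 3.46 ± 0.24 and the transmembrane collagen gene Col23a1 by 3.02 ± 0.25. Both lay above all other arrays.

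Zeb2, a zinc finger repressor of epithelial genes, had 10.12, 9.71 and 9.17 against at most 7.86 (2.82 ± 0.33). Bcl11b, another zinc finger factor, was higher by 2.73 ± 0.31, and Naalad2, a peptidase, by 2.84 ± 0.25. Other probe sets of Bcl11b differed by 0.4, 1.59 and 1.35, and that of Naalad2 by 1.03. Fst, which encodes the activin antagonist follistatin, measured 10.54, 10.46 and 10.54, and the highest other array had 8.92 (2.69 ± 0.41). These 4 genes were called against each of the 5 other populations. In all, 90 genes were called higher in every one of these comparisons, which share the Thy+6C3-CD105+ arrays.

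Transcription factors of limb mesenchyme were higher in part. Of 24 measured members 11 were called higher and 1 lower, with a median of 0.71, and 7 lay above all other arrays. The higher count was 7 without Thy+6C3-CD105+ replicate 3. Twist2, a basic helix-loop-helix repressor, stood at 11.45, 10.51 and 10.63 against 6.35 to 9.16 (median 7.31). Its difference of 3.36 ± 0.23 (limma adjusted p = 7.69e-08) was accompanied by a smaller one of Twist1, its relative (1.21 ± 0.32, adjusted p = 0.0313), whose call was lost without any single Thy+6C3-CD105+ array. Prrx2, a homeobox factor of limb mesenchyme, was higher by 1.59 ± 0.25, and the nuclear receptor gene Nr2f1 by 1.52 ± 0.19. Tbx18, a T-box factor known from mural cells, measured 9.38, 9.11 and 8.98 against 6.55 to 8.27 (1.37 ± 0.27). The member called lower was Pitx1, the homeobox factor of hindlimb identity, at 7.44, 6.98 and 6.77 against 7.50 to 9.29. Its adjusted p was 0.0376 (-1.18 ± 0.32), and the call was lost without any single Thy+6C3-CD105+ array.

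Signalling genes moved in both directions. Of 38 measured Wnt genes 9 were called higher and 4 lower, with a median of 0.19, and the higher count was 5 without Thy+6C3-CD105+ replicate 2 or 3. Dkk2 and Nkd2, which encode a secreted and an intracellular Wnt inhibitor, were higher by 1.97 ± 0.34 and 1.96 ± 0.35, and Rspo1, which amplifies Wnt signals, by 1.80 ± 0.17. All 3 lay above all other arrays. Lower were the inhibitor Frzb (-1.83 ± 0.26) and Lgr6, a receptor for R-spondins (-1.71 ± 0.31). Of 29 bone morphogenetic protein genes 1 was called higher and 3 lower, among them Gdf10 (-1.10 ± 0.11) and Gdf5, a ligand of forming joints (-1.54 ± 0.20). The higher member, Id4, lost its call without any single Thy+6C3-CD105+ array, and 5 were lower without Thy+6C3-CD105- replicate 3. Of 13 hedgehog genes 3 were called lower and none higher (limma; 3 and 0 unadjusted), led by Ihh, the ligand of growth plate chondrocytes (-1.17 ± 0.18), and 1 was lower without Thy+6C3-CD105+ replicate 2. Slit2, a guidance ligand, was higher by 2.10 ± 0.29 with no overlap, while its other probe sets differed by 0.54 and 0.53. Of 26 guidance genes 2 were called higher, 1 without Thy+6C3-CD105+ replicate 2 or 3 and 4 without Thy+6C3-CD105- replicate 3. Of 17 fibroblast growth factor genes and 19 transforming growth factor beta genes, 1 and 2 were called higher and 1 and 2 lower. Over all genes 3.23% were called higher and 1.64% lower. None of either list was called higher without any single Thy+6C3-CD105+ array, and over the alternatives the transforming growth factor beta counts ran from 0 to 5 higher and from 0 to 2 lower.

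Genes of tendon and fibrous tissue were higher in part. Of 25 measured members 10 were called higher and 2 lower than the mean of 5, with a median of 0.43. Dpt, which encodes the matrix protein dermatopontin, stood at 12.35, 12.53 and 12.43 against 8.22 to 11.62 (1.93 ± 0.25), and Kera, a corneal and tendon proteoglycan, at 12.12, 12.68 and 12.59 against 9.29 to 13.15 (1.68 ± 0.20). Dpt lay above all other arrays and Kera did not. Against Thy+6C3-CD105- cells none of the 25 was called by limma, and 3 were higher and 2 lower at an unadjusted p under 0.05. Over all genes only 0.824% were called higher and 0.192% lower in that comparison. The lack of calls among 25 genes therefore does not show equal levels. Of 10 adipocyte genes 4 were called higher, led by Lpl, the lipoprotein lipase (1.69 ± 0.20), while Adipoq, the adipocyte hormone adiponectin, stood at 3.97 to 4.21 and was not called. Without any single Thy+6C3-CD105+ array 2 of the 10 were called higher, and the calls of Cebpa and Pparg, transcription factors of fat cells, were lost. Of 14 interferon-induced genes 6 were called higher, led by Ifitm1 (3.58 ± 0.29) and Ifit2 (1.73 ± 0.26). Of 24 proliferation genes 2 were called higher, against 3.23% of all genes, with a median difference of 0.49. This count was 19 with array weights. It was 0 without Thy+6C3-CD105+ replicate 2 or 3 and 6 without Thy+6C3-CD105- replicate 3.

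Cartilage genes were lower in Thy+6C3-CD105+ cells. Of 23 measured chondrocyte genes 20 were called lower and none higher (limma; 22 and 0 unadjusted), with a median of -1.40. The mean level of the list was 9.27 to 9.71 on the 3 arrays and 9.16 to 12.20 on the others, so the groups overlapped. Col2a1, the main cartilage collagen, stood at 11.16, 11.69 and 11.17, against 10.86 to 14.28 with a median of 13.53 (-1.93 ± 0.15, limma adjusted p = 3.99e-07). It differed from Thy+6C3-CD105- cells by 0.12 (adjusted p = 0.735). Col11a2, another cartilage collagen, measured 7.79, 8.06 and 8.22, below all other arrays, of which the lowest had 8.49 (-2.07 ± 0.25). Snorc, a chondrocyte proteoglycan, was lower (-2.34 ± 0.33), and Sox9, the transcription factor that specifies chondrocytes, was lower (-1.63 ± 0.34). The Sox9 call was lost without Thy+6C3-CD105+ replicate 1. Against both Thy-6C3- populations all 23 were called lower, and 4 of the 23, 2 higher and 2 lower, were called against Thy+6C3-CD105- cells. Matn1, a cartilage matrilin, was not called against the mean of 5 (0.21). It was lower than in both Thy-6C3- populations (-3.46 and -3.55) and higher than in the other 3 (1.95 to 3.62).

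Late cartilage genes were lower in part, and most bone genes were not called. Of 8 hypertrophic genes 5 were called lower and none higher (limma; 5 and 0 unadjusted), including Col10a1 (-1.46 ± 0.21) and Mmp13 (-1.29 ± 0.32), a collagen and a collagenase. This count was 3 without Thy+6C3-CD105+ replicate 1 or 3. The Mmp13 call was lost without Thy+6C3-CD105+ replicate 1 or 3. Panx3, a channel protein, was lower on the probe set used (-2.13 ± 0.24), while the other probe sets differed by 0.04 and -0.32. Of 15 measured osteoblast genes 3 were called lower and Cdh11, a mesenchymal cadherin, higher (1.16 ± 0.21), while 11 were not called. Without any single Thy+6C3-CD105+ array only 1 of the 15 was called lower, and the calls of Ibsp and Sp7, a bone matrix protein and an osteoblast transcription factor, were lost. Against Thy+6C3-CD105- cells none of the 8 or of the 15 was called by limma. At an unadjusted p under 0.05, 2 were higher and 1 lower in each list. Over all genes 0.824% were called higher and 0.192% lower there, so these short lists cannot show equal levels. Against each 6C3+ population 1 of each list was lower. Smpd3, a sphingomyelinase of skeletal tissue, was lower (-2.10 ± 0.20). Of 10 joint lining genes 4 were called lower, among them Prg4, the lubricin gene, at 10.65, 11.45 and 11.36 against 10.22 to 14.11 (-1.79 ± 0.25). Of 18 immediate early genes 2 were called lower, Fosb (-1.58 ± 0.37) and Egr1 (-0.73 ± 0.14). The Fosb call was lost without Thy+6C3-CD105+ replicate 1 or 2, and 4 members were lower without Thy-6C3+CD105- replicate 1. The median of this list was -0.65, its mean level was 9.69 to 10.20 on the 3 arrays and 9.36 to 11.81 on the others, so the groups overlapped.

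Of the 40 genes called lower and below all other arrays, 2 were on the chondrocyte list, Col11a2 and Matn4. Prkcz, an atypical protein kinase C, stood at 6.34, 6.38 and 6.58 against 6.75 to 9.06 (-1.86 ± 0.24). Slc38a3, a glutamine transporter, measured 6.56, 6.49 and 6.44 against 6.57 to 9.68 (-1.52 ± 0.22), and Siah2, a ubiquitin ligase, 8.31, 8.13 and 8.28 against 8.47 to 10.41 (-1.34 ± 0.18). In both genes the nearest arrays were those of Thy+6C3-CD105- cells, from which they differed by -0.16 (adjusted p = 0.762) and -0.25 (0.524). Zdhhc23, a palmitoyltransferase, was narrow at 5.55 to 5.61 against at least 6.06 (-1.29 ± 0.13). Matn4, another matrilin, and Plekhb1 were lower too (-1.36 ± 0.22 and -1.32 ± 0.24). The muscle genes Tnni2 and Fbp2 lost their calls without replicate 2 or 3.

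**Figure D3:**
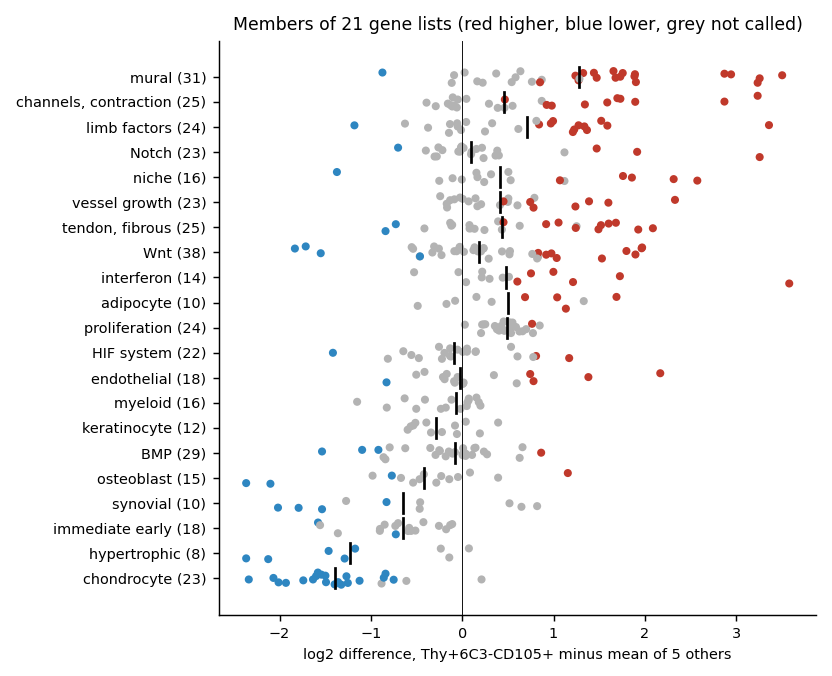
Log2 difference between Thy+6C3-CD105+ cells and the mean of the 5 other populations (horizontal axis) for each measured member of 21 gene lists, with the number of members in brackets. Red points were called higher, blue lower and grey neither, and the black bar is the list's median, from 1.28 for mural genes to -1.40 for chondrocyte genes.

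Thy+6C3-CD105+ cells were also compared with each population alone. There were 185 calls (1.02%) against Thy+6C3-CD105- cells, 150 higher (0.824%) and 35 lower (0.192%). This count was 78 and 87 without Thy+6C3-CD105+ replicates 3 and 2, 733 and 92 without Thy+6C3-CD105- replicates 1 and 3, and 330 without Thy-6C3+CD105- replicate 3. Against Thy-6C3+CD105+ and Thy-6C3+CD105- cells there were 471 (2.59%) and 496 (2.73%). Of the first, 311 were higher (1.71%) and 160 lower (0.879%), and of the second, 347 (1.91%) and 149 (0.819%). These counts lay within 291 to 580 and 296 to 699 when single arrays were left out, with counts beyond 1.5 times lower without Thy+6C3-CD105+ replicate 3 (301 and 296), without its replicate 2 (317 for the second) and without Thy-6C3+CD105+ replicate 1 or 2 (291 and 308 for the first). Against Thy-6C3-CD105+ and Thy-6C3-CD105- cells there were 1211 (6.66%) and 1478 (8.12%). Of the first, 733 were higher (4.03%) and 478 lower (2.63%), and of the second, 898 (4.94%) and 580 (3.19%). The first was 781 without Thy-6C3-CD105+ replicate 3, and the second 936 and 973 without Thy+6C3-CD105+ replicates 2 and 3. The 5 comparisons share the Thy+6C3-CD105+ arrays, and the sizes of these counts were not compared by a test. Their order was not stable. The count against Thy+6C3-CD105- cells was the lowest of the 5 over all arrays. It was not the lowest without Thy+6C3-CD105- replicate 1 (733, against 470 and 515 for the 6C3+ populations) or with array weights (2567, against 1500 and 838). Grouping by title leaves Thy-6C3+CD105- replicate 1 alone in its population, so its counts were not set in this order. The population means of Thy+6C3-CD105+ cells correlated across genes, which are not independent replicates, at 0.973 with Thy+6C3-CD105- cells and at 0.985 and 0.981 with Thy-6C3+CD105+ and Thy-6C3+CD105- cells. The lowest correlation between arrays of 1 population was 0.931, in Thy+6C3-CD105- cells.

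The median difference of the mural list was positive in each of these comparisons. Of its 31 members 11 were higher and none lower than in Thy+6C3-CD105- cells (median 0.97), 19 and 1 against Thy-6C3-CD105+ cells (1.59) and 20 and 1 against Thy-6C3-CD105- cells (1.41). Against Thy-6C3+CD105+ and Thy-6C3+CD105- cells, 15 and 13 were higher and none lower. Rgs5 was higher by 3.63 than in Thy+6C3-CD105- cells (adjusted p = 1.07e-06) and by 2.50 than in Thy-6C3+CD105+ cells (1.92e-05), the smallest of its 5 differences. Chodl, a lectin-like membrane protein of the fibrous list, was higher than in 4 populations by 2.23 to 2.69 and differed from Thy+6C3-CD105- cells by 0.72 (adjusted p = 0.25).

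**Figure D4:**
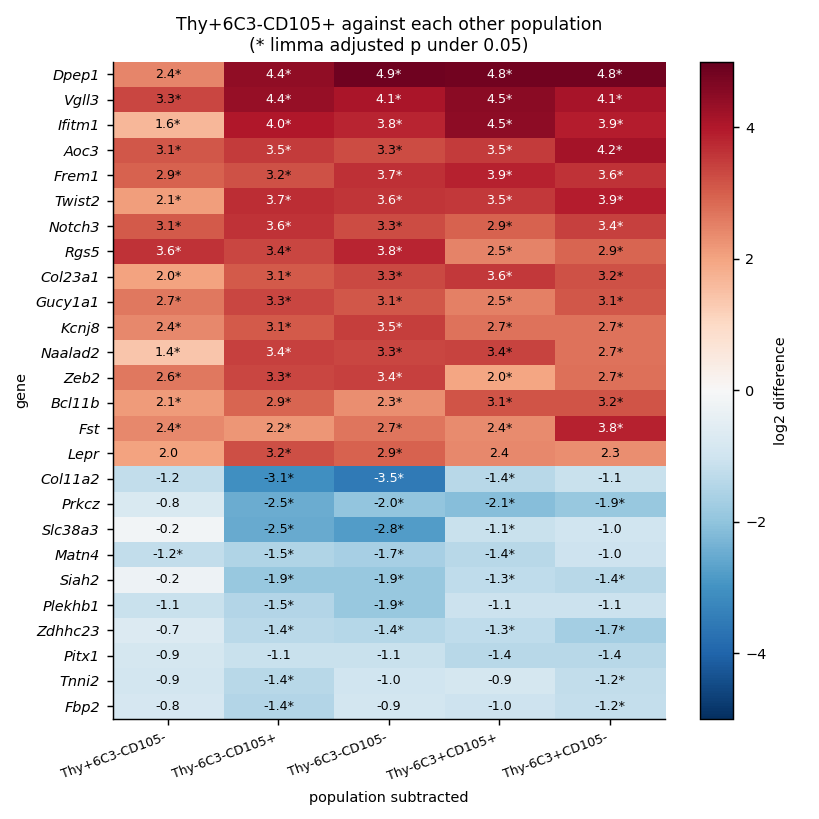
Log2 difference between Thy+6C3-CD105+ cells and each other population (columns) for 16 genes with the largest differences above, and 10 below, all other arrays (rows). Colours run from blue (lower) to red (higher), and an asterisk marks an adjusted p under 0.05 (limma). Dpep1 differs by 2.45 from Thy+6C3-CD105- cells and by 4.44 to 4.87 from the others, and Slc38a3 differs from Thy+6C3-CD105- cells by -0.16.

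The difference between CD105+ and CD105- cells was itself more positive in Thy+ than in Thy- cells for 8 of the 31 mural genes. A test of this interaction among the 6C3- populations called 49 genes (0.269%), 44 (0.242%) with a more positive CD105 difference in Thy+ cells and 5 (0.0275%) with a more negative one. The count was 25 to 32 without Thy-6C3-CD105+ replicate 3, Thy-6C3-CD105- replicate 1 or 3 or Thy+6C3-CD105+ replicate 2 or 3, and 104 and 101 without Thy+6C3-CD105- replicate 1 and Thy-6C3+CD105- replicate 3. Over all arrays 3033 genes had an unadjusted p under 0.05 (limma). Within the arrays of high poly-A control signal Thy-6C3-CD105- replicate 1 is alone in its population. That fit had 5 residual degrees of freedom, against 12 over all arrays, so the interaction cannot be judged there.

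Epas1 differed by 3.79 between CD105+ and CD105- cells among Thy+ cells and by 0.47 among Thy- cells, an interaction of 3.31 ± 0.33 (limma adjusted p = 0.000185). Rgs5 had 3.63 and 0.44 (3.18 ± 0.38, adjusted p = 0.000726). Kcnj8 had 2.40 and 0.41. Among the 5 genes of the other direction were the keratinocyte genes Krt5, Krt14 and Krt15, which were high in Thy+6C3-CD105- cells rather than low in Thy+6C3-CD105+ cells. Krt5 stood at 8.31, 8.97 and 9.24 there and at 6.64, 6.37 and 6.28 in Thy+6C3-CD105+ cells. Their part in the differences from Thy+6C3-CD105- cells was not tested.

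**Figure D5:**
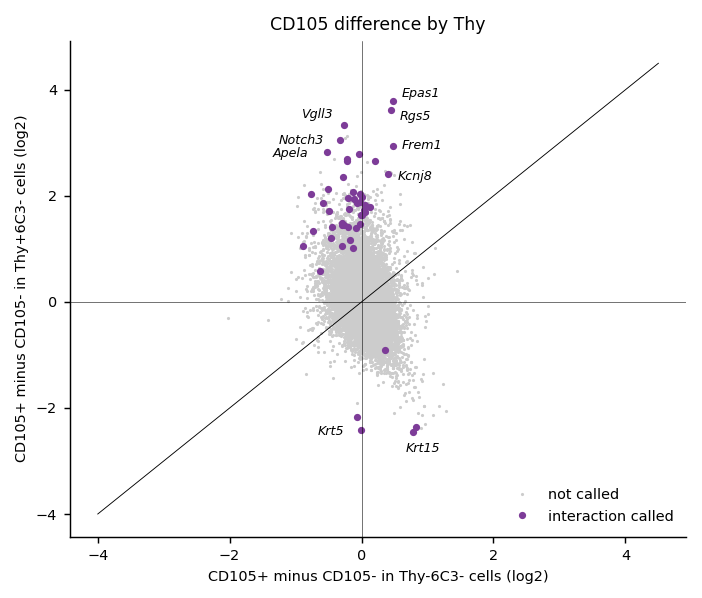
CD105+ minus CD105- log2 difference in Thy+6C3- cells (vertical axis) against the same difference in Thy-6C3- cells (horizontal axis), 1 point per gene. Purple points are the 49 genes whose 2 differences were called unequal (limma adjusted p under 0.05), and the diagonal marks equal differences, with Epas1 at 3.79 and 0.47.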

How the data were processed

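Amplified RNA of the sorted cells, from a pair of amplification rounds, was measured on Affymetrix arrays of type 430-2.0, per the labels' protocols. The authors deposited log2 levels for 45101 probe sets on 19 arrays, and the steps from scans to levels are not given in the sources used here. Deposited values lie between 2.55 and 14.6. Because array medians differed by more than 0.1, the values were quantile normalized over the 19 arrays. Control probe sets (64) and those with several gene symbols (932) or none (9160) were left out. The remaining 34945, with 1 symbol in the annotation table, gave 18193 genes, each by the probe set of highest mean over the 18 neonatal arrays, with no filter on low values. Levels are per probe set and are not compared between genes. Other probe sets are given for some genes only, so where none is given agreement is not implied.

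Arrays were grouped by the population field. limma 3.58.1 in R 4.3.3 fitted 1 mean per population over 18 arrays (12 residual degrees of freedom, prior 5.38) with a variance trend, two-sided, with Benjamini-Hochberg adjustment over all genes. The contrasts were Thy+6C3-CD105+ minus the mean of the 5 others, minus each of them, and the interaction of Thy and CD105. The first contrast was checked on simulated arrays. There the fit recovered 75% of true differences of 1 and 95% of those of 2 (log2), with 11 false calls among 17993 genes. These figures describe the simulated arrays only, and whether they hold for the real arrays was not tested.

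The population, the markers and the gene lists were chosen with earlier results of these data known. Named genes were the 16 largest rises and 10 largest falls among called genes without overlap and above the median gene mean of 6.76, up to 4 called members per list, the sorted antigens, the markers and up to 4 genes per direction of the interaction. The other genes named were chosen after their values were seen, and not all genes of the rule are named. Alternatives changed the scaling, genes, probe sets, variance model, array weights, blocks, grouping label, populations averaged and arrays. The poly-A control signal, from RNA added before amplification, split the neonatal arrays at 5.9 into 11 high and 7 low. Promoters came from RefSeq's GRCm38.p6. Python 3.11.15 was used for sequences and figures (matplotlib 3.10.9, numpy 2.4.6, pandas 2.3.3).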

Additional observations from a re-analysis of the deposited data

Results flagged for a closer look

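The 17 genes below differed between Thy+ and Thy- cells in their CD105+ minus CD105- difference among 6C3- populations. They are part of the 49 genes called by the limma interaction test over all genes. They were taken from genes already named or listed, mostly for being higher in Thy+6C3-CD105+ cells, a choice that favours positive interactions. The 5 called genes with a more negative CD105 difference in Thy+ cells are not among them. For 10 of the 17 the call was kept when each array was left out in turn. Within the arrays of high poly-A control signal Thy-6C3-CD105- replicate 1 is alone in its population. That fit had 5 residual degrees of freedom, against 12 over all arrays, so none of the calls can be judged there. Over all settings the lowest interaction of each gene lay between 1.14 for Id4 and 3.08 for Vgll3.

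The interaction was 3.60 ± 0.52 for Vgll3 (adjusted p = 0.00343), 3.38 ± 0.60 for Notch3 (0.0155), 3.35 ± 0.50 for Apela (0.00486), which encodes a peptide ligand of the apelin receptor, 3.31 for Epas1 and 3.18 for Rgs5. Gucy1a1 had 2.88 ± 0.34 (adjusted p = 0.000726), Myh11 2.63 ± 0.40 (0.0052) and Frem1 2.47 ± 0.43 (0.0155). Twist2 had 2.20 ± 0.43 (adjusted p = 0.0321), Esam, an adhesion molecule of vessels, 2.06 ± 0.26 (0.000904), Hey2 2.05 ± 0.26 (0.000904) and Kcnj8 2.00 ± 0.31 (0.00574). Smaller interactions were those of Id4 (1.94 ± 0.38, adjusted p = 0.0344), Higd1b (1.70 ± 0.29, 0.0115), Mcam (1.65 ± 0.30, 0.021), Tagln (1.62 ± 0.33, 0.0425) and Rspo1 (1.49 ± 0.30, 0.0458). Single arrays decided the calls of Id4, Tagln, Mcam, Twist2, Rspo1, Frem1 and Notch3. The CD105 difference in Thy- cells lay between -0.52 for Apela and 0.47 for Epas1 and Frem1.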

How the results depend on the processing

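Of 158 named or listed genes called against the mean of 5, 105 kept their call when each array was left out in turn and 81 under all settings, and 53 lost it without some Thy+6C3-CD105+ array. Directions reversed for Itgav (-0.059, mean of probe sets), Panx3 (0.039), Acta2 (-0.108) and Ptger3 (-0.117) with unshared probe sets only, and Enpep (0.008, average without Thy-6C3+CD105-). The Acta2 value came from a probe set at a low level, 4.21 in Thy+6C3-CD105+ cells and 4.31 in the others.

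Calls against the mean of 5 were 831 with the values as deposited, 455 to 1151 with single arrays left out, 3927 with array weights and 483 within the high poly-A arrays. In the order Thy+6C3-CD105-, Thy-6C3-CD105+, Thy-6C3-CD105-, Thy-6C3+CD105+, Thy-6C3+CD105- and interaction, the counts were 2567, 2889, 3074, 1500, 838 and 645 with array weights, and 59, 761, 428, 219, 282 and 0 within the high poly-A arrays. With single arrays left out they ranged over 78 to 733, 781 to 1623, 936 to 1951, 291 to 580, 296 to 699 and 25 to 104. Against Thy+6C3-CD105- cells there were 308 calls with a common median, 45 among genes above the median level and 110 without the arrays that stand apart, an alternative added after seeing the data. Against 6C3+ cells, genes above the median level gave 294 and 312. Grouping by title leaves replicate 1 alone in the CD105- ones, so no count is given. The interaction gave 86 with a common median, 12 above the median level and 77 with the mean of probe sets. Genes above all other arrays numbered 558 with a common median, 166 above the median level and 870 in the high poly-A set (334 to 586 with single arrays left out), and genes below numbered 31, 728 in the high poly-A set and 133 without the arrays that stand apart (86 to 395). The cause of these shifts was not tested.

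With the replicate number as a block, 938 genes were called against the mean of 5 and 307 against Thy+6C3-CD105- cells. Whether arrays of the same number deviated together was not tested. Over 45 pairs their correlations ran widely, from -0.564 to 0.67, with a median of 0.028, against 0.011 for other numbers. Of 18 arrays 7 correlated best with their own number. Dim probe sets limit small differences.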

Other observations

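Several genes of vessel walls or endothelium that were on no list or on the endothelial list were higher in Thy+6C3-CD105+ cells, where Pecam1, Cdh5, Kdr and Emcn were not called; they were chosen after their values were seen. Esam stood at 8.31, 8.35 and 8.28 against 5.90 to 6.53 elsewhere. Adgrf5, an adhesion G protein-coupled receptor, had 8.09, 8.09 and 7.75 against 4.87 to 6.23, and Cd93, a surface glycoprotein, 6.80, 6.98 and 6.84 against 4.73 to 5.76. Actg2, the enteric smooth muscle actin, measured 7.38, 7.54 and 7.42 against 4.56 to 6.08. None of the 4 genes overlapped with another array. Sox18, an endothelial transcription factor, had 7.96, 7.13 and 7.36 and overlapped with Thy+6C3-CD105- cells, whose arrays had 7.41, 6.48 and 7.18.

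Shox2, a homeobox factor of the proximal limb, and F13a1, a coagulation factor subunit, were also lower in Thy+6C3-CD105- than in Thy+6C3-CD105+ cells. Shox2 stood at 7.20, 6.24 and 6.08 in the former and at 8.70, 8.43 and 8.51 in the latter. F13a1 stood at 5.91, 6.01 and 5.81 in the former and at 7.79, 8.92 and 9.38 in the latter. Neither gene lay above all other arrays, and their levels in the Thy- populations are not given. The adult array, which entered no comparison, is titled Thy+6C3+CD105+ and so is of another population. On it Rgs5 had 5.49, Notch3 5.55 and Dpep1 5.14, while Epas1 had 10.69, Pdgfrb 12.12, Cspg4 11.78 and Acta2 11.12. Age and population cannot be told apart on this array.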
